A study of Mus musculus with 6 samples.

Results

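This account covers 9 genes of T-cell costimulation and immune checkpoints, *Cd274* (PD-L1), *Pdcd1lg2* (PD-L2), *Cd80*, *Cd86*, *Cd276* (B7-H3), *Icosl*, *Havcr2* (TIM-3), *Lgals9* (galectin-9) and *Pvr* (CD155), in F4/80high and F4/80low tumor-associated macrophages (TAMs). They were taken by symbol from tables of 23424 genes, and all 9 were present in every library. The TAMs came from YUMM1.7 tumors, a mouse melanoma line grown intradermally in WT female C57Bl/6J mice that were 8 weeks old at tumor induction and received no treatment. Cells were sorted on day 21 as live CD45+ CD11b+ cells with high or low F4/80, the macrophage surface protein encoded by *Adgre1*, and the study also gated out cells with lineage markers. There were 3 libraries per subset, from 3 independent experiments that each pooled 10 tumors, and each experiment gave a library of both subsets, so libraries with the same replicate number form a pair. Values of a subset are listed in the order of its replicates 1, 2 and 3. The study draws replicates 1 and 2 as batch 1 and replicate 3 as batch 2. A library is a pool and not an animal, and the spread between libraries is the spread between these experiments.

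T cells need a signal through their antigen receptor and a second through costimulation to become fully active. CD80 and CD86 on antigen-presenting cells deliver it through CD28 and also bind the inhibitory receptor CTLA-4, whereas ICOSL binds ICOS on activated T cells. PD-L1 and PD-L2 restrain T cells through PD-1, and PD-L1 is well known for its induction by interferon-gamma in tumors. Galectin-9 and CEACAM1 are partners of TIM-3, and PVR is bound by the activating receptor CD226 and by the inhibitory receptors TIGIT and CD96.

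The batches differed in depth. Total counts were 30292061 to 43604373 in the 4 libraries of batch 1, and 16045281 and 16204810 in the 2 libraries of batch 2. In batch 2, *Lars2* and 2 features resembling ribosomal RNA took 16.1% to 17.1% of the counts, against 0.378% to 0.609% in batch 1. The macrophage markers *Adgre1*, *Csf1r*, *Itgam*, *Ptprc*, *Cd68*, *Fcgr1*, *Lyz2* and *C1qa* were detected in all 6 libraries, with sums of 6537 to 23448 CPM (counts per 1e6 reads, scaled by TMM) in F4/80high and 7815 to 10647 CPM in F4/80low. *Adgre1* measured 273, 539 and 360 CPM across the F4/80high libraries against 243, 327 and 183 CPM across the F4/80low libraries, higher in F4/80high in 3 of 3 pairs.

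The first comparison asked whether the subsets, which share the tumor, differ in the signals they could offer T cells. All 9 genes were transcribed in both subsets, and none passed both thresholds, an adjusted p below 0.05 and a log2 fold change larger than 1 in size. *Cd80* had the largest and most even difference, with a lower level in F4/80high in each pair, and *Cd86*, which shares its receptors, had a higher level in F4/80high in each pair. The genes for both PD-1 ligands were lower on average in F4/80high, *Pdcd1lg2* in each pair by uneven amounts and *Cd274* in 2 of 3 pairs, and *Icosl* and *Havcr2* had differences close to 0. In bulk RNA, fewer cells of a type and less RNA per cell cannot be told apart.

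In the fit over all 14645 protein-coding genes with at least 10 counts, edgeR with a batch term called 0 genes (0% called), and therefore 0 of the 9. The smallest adjusted p of any gene was 0.434. At an unadjusted p under 0.05, 1 of the 9 was counted, *Cd80*, where 7.6% of all genes were. DESeq2, the package that the study used with these thresholds, also called 0 of the 9 with the same terms, where it called 1.01% of all genes. With the replicate number as a block, edgeR called 0 of the 9 against 0.519% of all genes, and 1 of the 9 had an unadjusted p under 0.05 against 9.91%. Of the 9 genes, 3 had a log2 fold change above 0 and 6 below 0, with a median of -0.16, where the median over all genes tested was 0.01. In 0 of the 9 did the values of the subsets part without overlap, which 5.2% of all genes did. *Cd86* and *Cd276* were higher in F4/80high in all 3 pairs, which 16.1% of all genes were, and *Cd80* and *Pdcd1lg2* were lower in all 3, which 17.9% were.

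**Figure D1:**
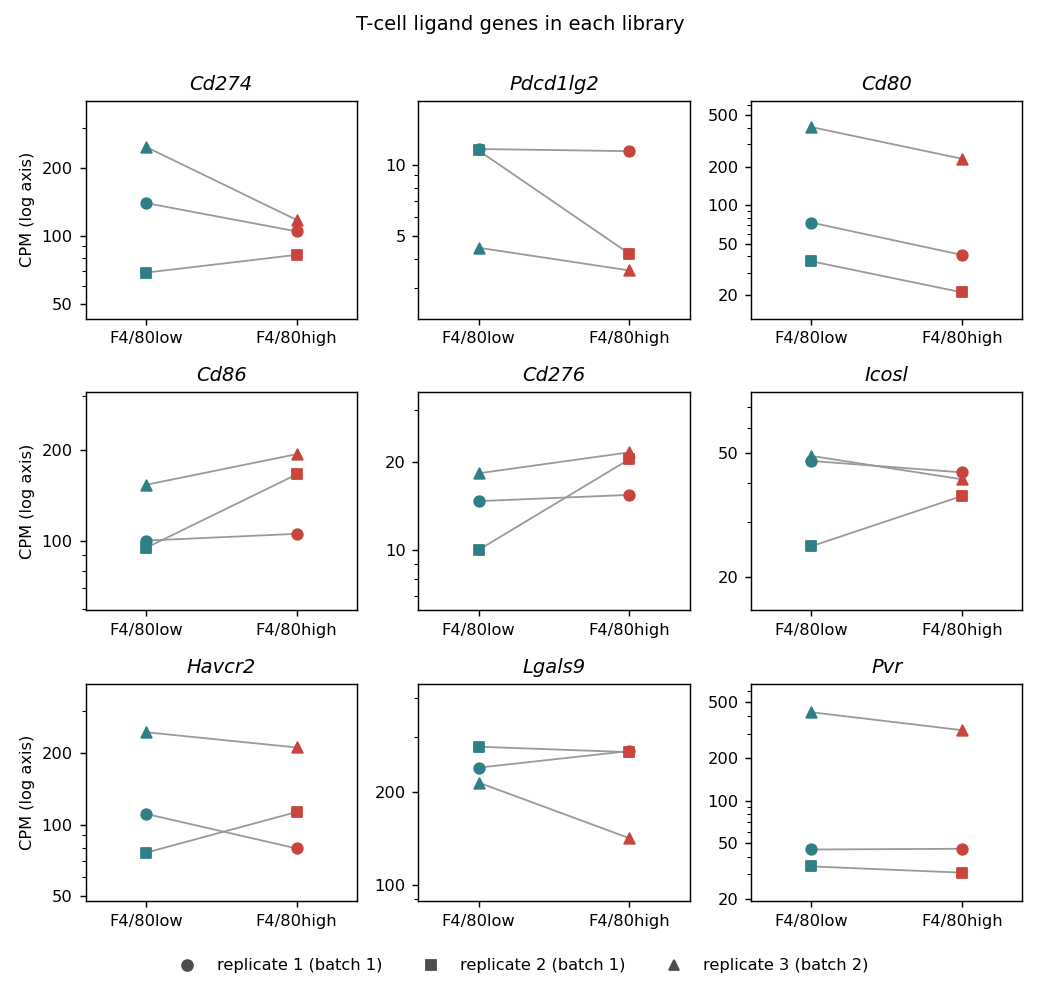
Level of each gene in CPM (log axis, scaled to the TMM library size) in the 3 F4/80low libraries (teal) and the 3 F4/80high libraries (red), with lines joining libraries of the same experiment and marker shapes for the replicates. In *Cd80* and *Pvr* the replicate 3 libraries lie far above the others in both subsets, and the 3 lines of *Cd80* fall in parallel from F4/80low to F4/80high.

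*Cd80* and *Cd86* encode the B7 ligands of CD28 and CTLA-4. *Cd80* (ENSMUSG00000075122, chromosome 16 from 38455561 to 38496335 of GRCm38, plus strand) measured 41.1, 21.0 and 230 CPM across the F4/80high libraries against 73.4, 36.7 and 405 CPM across the F4/80low libraries. Both replicate 3 libraries were far higher than the rest. The groups overlapped, also within batch 1, where F4/80high replicate 1 exceeded F4/80low replicate 2. Yet within each pair F4/80high was the lower, by 0.84, 0.80 and 0.82 on the log2 scale. The fitted log2 fold change was -0.82 (SE 0.33, 95% interval -1.57 to -0.07), with an unadjusted p of 0.0345 and an adjusted p of 0.623 in edgeR. With the replicate block, the estimate was again -0.82 (SE 0.19), with an adjusted p of 0.121 in edgeR and 0.00957 in DESeq2. The adjusted p of DESeq2 with the block alone, without the fold threshold, was under 0.05 in 3.3% of all genes, and *Cd80* was not called because its fold change was under the threshold. Without F4/80low replicate 1 the estimate was -0.49, and without F4/80high replicate 1 it was -1.14, neither past the threshold on the adjusted p.

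*Cd86* (ENSMUSG00000022901, chromosome 16 from 36603869 to 36666081, minus strand) is the B7 ligand that myeloid cells commonly carry at rest. It measured 106, 166 and 194 CPM across the F4/80high libraries against 101, 95.1 and 153 CPM across the F4/80low libraries. F4/80high was the higher in each pair, by 0.07, 0.80 and 0.34 on the log2 scale, and the groups overlapped, since F4/80low replicate 3 exceeded F4/80high replicate 1. The fitted difference was 0.43 (SE 0.24, 95% interval -0.11 to 0.96, edgeR adjusted p = 0.699). It was 0.18 without F4/80high replicate 2 and 0.17 in the block fit without replicate 2 of both subsets.

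Because both proteins bind the same receptors, the level of *Cd86* over that of *Cd80*, each per kilobase of gene length, was taken within each library. The log2 ratio measured 0.26, 1.87 and -1.35 across the F4/80high libraries against -0.65, 0.27 and -2.51 across the F4/80low libraries. The ratio was higher in F4/80high in 3 of 3 pairs, by 0.91, 1.61 and 1.16, a mean of 1.22 ± 0.35 (SD, n = 3 pairs). In linear terms it ranged from 0.176 to 3.67 over the libraries, with geometric means of 1.20 in F4/80high and 0.513 in F4/80low. The spread between experiments was thus wider than the difference between subsets, and the subsets overlapped unless taken by pair. This ratio was examined as a description and has no test.

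**Figure D2:**
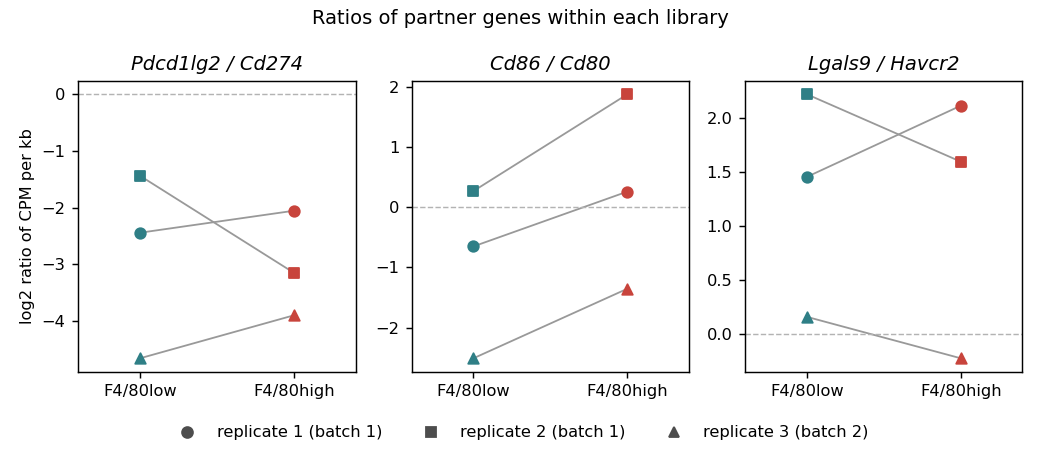
Log2 ratio of CPM per kilobase of gene length for *Pdcd1lg2* over *Cd274*, *Cd86* over *Cd80* and *Lgals9* over *Havcr2* in each library, with lines joining libraries of the same experiment. The 3 lines of *Cd86* over *Cd80* rise from F4/80low to F4/80high, by 0.91, 1.61 and 1.16, and the lines of the other ratios cross.

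*Cd80* is also carried by dendritic cells, and most genes of these cells had log2 fold changes of the same sign as *Cd80*. None of them was called in edgeR with the batch term. All 9 genes of a mature dendritic cell list (*Ccr7*, *Fscn1*, *Ccl22*, *Ccl17*, *Il12b*, *Cacnb3*, *Il4i1*, *Socs2* and *Nudt17*) had log2 fold changes below 0, 6 of them in all 3 pairs. Their summed level was 405, 138 and 142 CPM across the F4/80high libraries against 798, 226 and 250 CPM across the F4/80low libraries, and none of the 9 was at 0 in any library. Of 10 genes of conventional dendritic cells, 9 were below 0, with sums of 54.6 to 169 CPM in F4/80high and 119 to 291 CPM in F4/80low, and *Clec9a* was at 0 in at least 1 library. With the replicate block, edgeR called *Ccl22* at -1.56 (adjusted p = 0.0348) and *Cd209a*, of the conventional list, at -2.21 (adjusted p = 0.0363). It called no other gene of these lists, and 0.519% of all genes. Unlike *Cd80*, the mature dendritic cell sums were highest in replicate 1. The part of these cells in the *Cd80* difference was not tested.

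*Cd274* and *Pdcd1lg2*, the PD-1 ligand genes, lie side by side on chromosome 19 on the plus strand, *Cd274* (ENSMUSG00000016496) from 29367455 to 29388095 and *Pdcd1lg2* (ENSMUSG00000016498) from 29410919 to 29471161. *Cd274* measured 105, 82.3 and 118 CPM across the F4/80high libraries against 140, 68.6 and 248 CPM across the F4/80low libraries. The highest level was in F4/80low replicate 3 and the lowest in F4/80low replicate 2, so that the 3 F4/80high libraries lay inside the range of F4/80low. Pairs 1 and 3 had the lower level in F4/80high, by 0.42 and 1.08 on the log2 scale, and pair 2 had the higher, by 0.26. In the fit, the log2 fold change was -0.46 (SE 0.32, 95% interval -1.19 to 0.27, edgeR adjusted p = 0.742), and -0.80 without F4/80low replicate 2. It was -0.23 without F4/80low replicate 1, -0.16 without either library of replicate 3, and -0.08 in the block fit without replicate 3 of both subsets.

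*Pdcd1lg2* was the gene with the fewest counts, 452, 216 and 33 across the F4/80high libraries against 464, 467 and 39 across the F4/80low libraries. As CPM, these counts are 11.4, 4.20 and 3.57 for F4/80high against 11.6, 11.5 and 4.45 for F4/80low. F4/80high was lower in each pair, but by 1.45 on the log2 scale in pair 2 and by 0.03 and 0.32 in pairs 1 and 3, so that most of the difference came from 1 library, F4/80high replicate 2. The estimate was -0.49 (SE 0.44, 95% interval -1.48 to 0.50, edgeR adjusted p = 0.800), and -0.16 without that library. Without F4/80high replicate 1 it was -0.99.

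The level of *Pdcd1lg2* per kilobase was below that of *Cd274* in all 6 libraries, with ratios of 0.0395 to 0.369. On the log2 scale, this ratio measured -2.06, -3.15 and -3.90 across the F4/80high libraries against -2.45, -1.44 and -4.66 across the F4/80low libraries. Its differences by pair, 0.39, -1.71 and 0.76, had no common direction.

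The genes around this locus were then listed by position, a step chosen after their values had been seen. *Jak2*, a kinase of the interferon-gamma receptor, *Insl6*, *Plgrkt*, *Cd274* and *Pdcd1lg2* follow one another within 219 kb. Of the 5, 4 had log2 fold changes below 0, where 49.2% of all genes had, and edgeR called none of them. *Jak2* measured 99.6, 65.2 and 210 CPM across the F4/80high libraries against 234, 106 and 453 CPM across the F4/80low libraries, lower in F4/80high in each pair although the groups overlapped. The fit gave -1.07 (SE 0.32, unadjusted p = 0.00837, edgeR adjusted p = 0.504). *Plgrkt*, transcribed away from *Cd274* with 64 bases between the annotated genes, had a value of 0.09 (SE 0.23, edgeR adjusted p = 0.948). *Cd274* also shares exonic bases with an annotated antisense transcript and *Cd276* with a predicted transcript on the opposite strand, and the use of strand in the counting is not given in the sources used here.

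Promoter sequence is shown for these neighbours and for *Cd80* and *Havcr2*, which were higher together in batch 2 as given further on. The windows are the RefSeq reference on GRCm38.p6, plus strand, written up to the base before the RefSeq start. Of the 9 genes, 7 matched a window. *Cd86* and *Pvr* matched none, so *Pvr*, also higher in batch 2, could not be searched. Searched on both strands were the interferon-response letters GAAANNGAA (IRF), the STAT letters TTCNNNGAA (GAS), the NF-kB letters GGGNNNTTC, the AP-1 letters TGANTCA and the PU.1 letters GAGGAA, which 7.13%, 7.02%, 11.8%, 6.75% and 23.3% of 32851 windows of 250 bases contained. Capitals mark the matches below. The window of *Cd274* is shown at chr19:29367309-29367437, after an annotated exon of *Plgrkt* that covers its distal part. The *Plgrkt* gene is annotated up to 29367390, so the first bases shown, the marked match among them, still lie within it. The others are shown at chr19:29410669-29410918, chr16:38458683-38458932 and chr11:46454681-46454930.
Cd274: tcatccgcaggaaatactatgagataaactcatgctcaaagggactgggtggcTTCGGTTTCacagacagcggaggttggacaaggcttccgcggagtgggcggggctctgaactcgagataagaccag
Pdcd1lg2: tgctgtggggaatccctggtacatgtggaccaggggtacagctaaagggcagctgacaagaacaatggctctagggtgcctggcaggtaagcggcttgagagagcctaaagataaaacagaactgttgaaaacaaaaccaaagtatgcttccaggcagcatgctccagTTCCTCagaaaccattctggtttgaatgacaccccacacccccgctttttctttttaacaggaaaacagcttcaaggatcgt
Cd80: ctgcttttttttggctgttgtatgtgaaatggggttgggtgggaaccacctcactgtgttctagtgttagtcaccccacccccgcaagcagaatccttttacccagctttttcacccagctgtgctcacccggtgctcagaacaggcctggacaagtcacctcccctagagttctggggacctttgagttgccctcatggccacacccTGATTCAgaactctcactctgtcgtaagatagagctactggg
Havcr2: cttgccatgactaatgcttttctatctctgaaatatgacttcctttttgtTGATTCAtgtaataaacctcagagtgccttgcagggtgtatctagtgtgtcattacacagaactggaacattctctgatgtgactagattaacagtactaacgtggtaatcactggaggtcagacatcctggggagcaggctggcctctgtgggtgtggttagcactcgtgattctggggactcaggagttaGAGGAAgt

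The capitals in *Cd274* are a match to the IRF letters on the opposite strand, 76 to 68 bases before the start. A match to the NF-kB letters lay further out, 154 to 146 bases before the start, in the part not shown. *Pdcd1lg2* held neither, and only a match to the PU.1 letters on the opposite strand, 82 to 77 bases before its start. *Cd80* and *Havcr2* held the same AP-1 string, 42 to 36 and 200 to 194 bases before their starts, and *Havcr2* a match to the PU.1 letters 8 to 3 bases before its start. Of the other windows, *Lgals9* held 1 match to the IRF letters and 2 to the PU.1 letters, and *Cd276* 1 to the PU.1 letters. No 2 matches overlapped, none of the 7 windows held the GAS letters, and the *Cd80* window lies in an intron of the longer GENCODE M21 gene. These matches describe letters and not bound sites.

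*Cd276* and *Icosl* are the remaining B7 family genes. *Cd276* (ENSMUSG00000035914, chromosome 9 from 58524298 to 58555437, minus strand), whose product B7-H3 is mostly described as inhibitory and has no agreed receptor, measured 15.4, 20.4 and 21.5 CPM across the F4/80high libraries against 14.7, 10.03 and 18.3 CPM across the F4/80low libraries. F4/80high was the higher in each pair, by 0.07, 1.02 and 0.24 on the log2 scale, with overlapping groups. On the log2 scale the fit gave 0.44 (SE 0.29, 95% interval -0.22 to 1.10, edgeR adjusted p = 0.736), 0.25 to 0.58 when single libraries were left out, and 0.11 in the block fit without replicate 2 of both subsets. Fibroblasts can also transcribe *Cd276*, and all 6 of their markers had log2 fold changes below 0, with sums of 438 to 1528 CPM in F4/80high and 1048 to 1891 CPM in F4/80low.

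*Icosl* (ENSMUSG00000000732, chromosome 10 from 78069302 to 78083913, plus strand) encodes the ligand of ICOS. It measured 43.2, 36.3 and 41.1 CPM across the F4/80high libraries against 47.0, 25.1 and 48.8 CPM across the F4/80low libraries. The F4/80high libraries lay close together, inside the wider range of F4/80low, and the means were nearly equal, at 40.2 ± 3.52 and 40.3 ± 13.2 CPM (SD, n = 3 each). The log2 fold change was 0.01 (SE 0.29, 95% interval -0.63 to 0.66, edgeR adjusted p = 0.996).

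*Havcr2* and *Lgals9* encode TIM-3, which is a receptor carried by myeloid cells as well as T cells, and its ligand galectin-9. *Havcr2* (ENSMUSG00000020399, chromosome 11 from 46454935 to 46481255, plus strand) measured 79.4, 113 and 210 CPM across the F4/80high libraries against 111, 76.2 and 244 CPM across the F4/80low libraries. Pairs 1 and 3 had the lower level in F4/80high and pair 2 the higher, and the groups overlapped. The fitted difference was -0.04 (SE 0.25, 95% interval -0.60 to 0.52, edgeR adjusted p = 0.980).

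*Lgals9* (ENSMUSG00000001123, chromosome 11 from 78962974 to 78984946, minus strand) measured 270, 268 and 141 CPM across the F4/80high libraries against 239, 279 and 214 CPM across the F4/80low libraries. The lowest level was in F4/80high replicate 3, and the other libraries lay within a narrow range. In the fit, the log2 fold change was -0.16 (SE 0.23, 95% interval -0.68 to 0.36, edgeR adjusted p = 0.899), and it turned to 0.06 without replicate 3 of both subsets. The log2 ratio of *Lgals9* to *Havcr2* per kilobase differed by 0.66, -0.63 and -0.38 in pairs 1, 2 and 3, again with no common direction.

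*Pvr* (ENSMUSG00000040511, chromosome 7 from 19903578 to 19921160, minus strand) measured 45.4, 30.7 and 317 CPM across the F4/80high libraries against 44.9, 34.02 and 425 CPM across the F4/80low libraries. Both replicate 3 libraries were far above the other 4. By pair the differences were 0.02, -0.15 and -0.42 on the log2 scale, and the log2 fold change was -0.18 (SE 0.25, 95% interval -0.73 to 0.38, edgeR adjusted p = 0.896), and -0.39 to -0.05 when single libraries were left out. *Pvr* is also transcribed by tumor cells, and the melanoma markers found in the tables summed to at most 3.08 CPM in any library, with *Mlana* at 0 in at least 1.

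**Figure D3:**
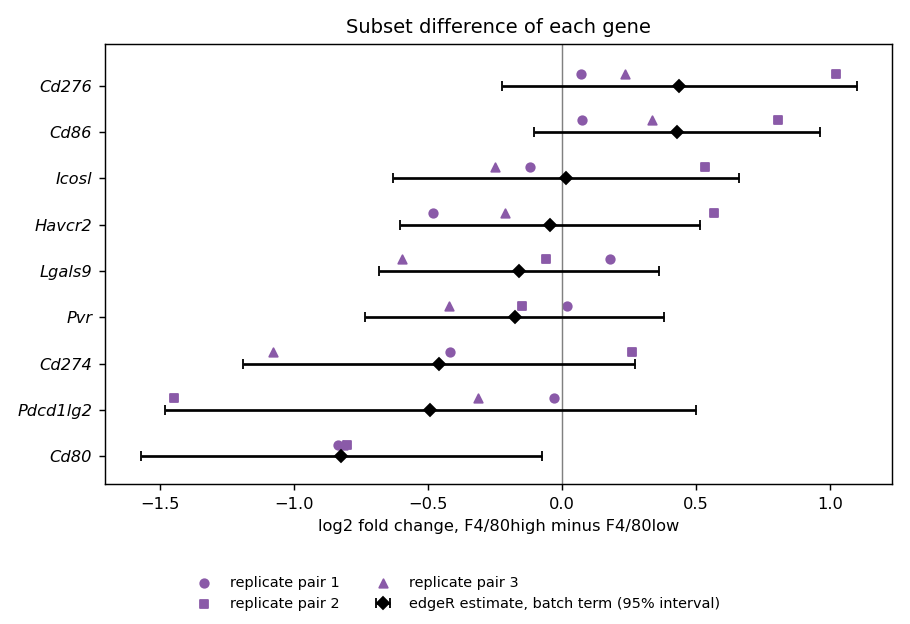
Log2 fold change of each gene between F4/80high and F4/80low from edgeR with a batch term (black diamonds, bars are 95% intervals) and the difference in each replicate pair (purple). The interval of *Cd80* alone, -1.57 to -0.07, leaves out 0, and its pair values lie almost on top of each other, while those of *Pdcd1lg2*, *Cd276*, *Cd274* and *Havcr2* are widely spread.

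The second comparison set replicate 3 of both subsets, batch 2, against replicates 1 and 2, batch 1, in the same fit. It asks how far the genes varied between experiments, and the date, animals, sort and sequencing behind a batch cannot be told apart. The fit treats the libraries of a batch as independent, but those of batch 2 come from 1 experiment. The p-values and calls between batches therefore do not measure the spread between experiments. *Pvr*, *Cd80* and *Havcr2* were higher in batch 2, by 3.25 (SE 0.26), 2.88 (SE 0.34) and 1.26 (SE 0.26) on the log2 scale, with edgeR adjusted p of 1.74e-05, 0.00019 and 0.0036. Thus 3 of the 9 were called higher, where 17.9% of all genes were, and 0 were called lower, where 20.2% were. The edgeR count of the 9 with an unadjusted p under 0.05 was 7 in either direction, where 50% of all genes were counted, and DESeq2 called 4 higher and 0 lower, where it called 21.8% and 18.4% of all genes. The batch difference of *Cd80* was thus larger than its subset difference of -0.82.

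These differences depend on how the libraries are scaled. The median log2 difference of all genes between batches was -0.35 with TMM, -0.16 with RLE size factors and -1.37 with library size alone. With library size alone, *Pvr* at 2.22 and *Cd80* at 1.85 were still called higher, 2 of the 9 where 8.06% of all genes were. *Pdcd1lg2* at -2.29 and *Lgals9* at -1.62 were then called lower, 2 of the 9 where 41.5% of all genes were, and *Havcr2* at 0.24 was not called. With RLE size factors 4 were called higher, the same 3 and *Cd274* at 1.02, where 20.5% of all genes were. Relative to the median gene, *Pdcd1lg2* and *Lgals9* were below it under all 3 scalings, and the rest of the 9 were above it.

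**Figure D4:**
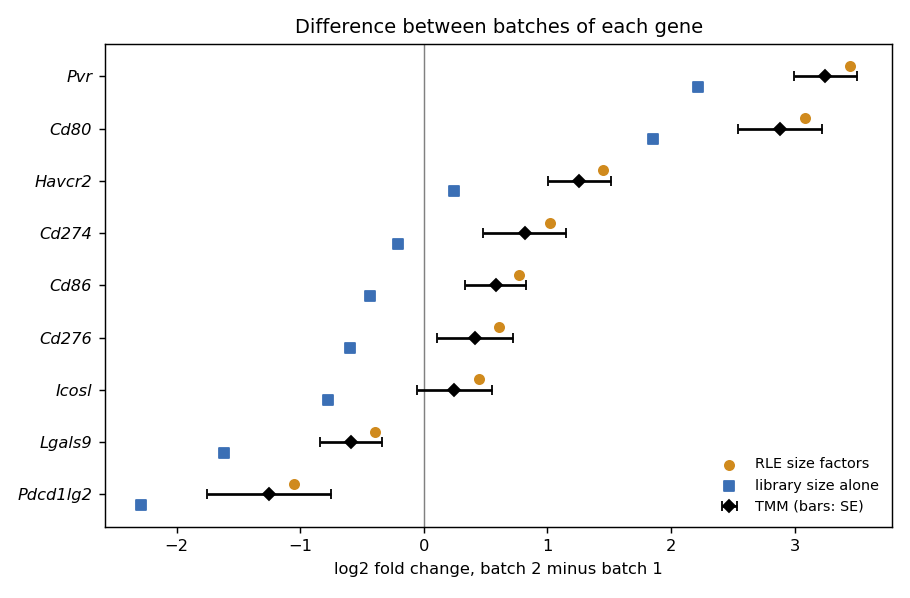
Log2 fold change of each gene between batch 2 (replicate 3 of both subsets) and batch 1 (replicates 1 and 2) with TMM scaling (black, bars are SE), RLE size factors (orange) and library size alone (blue). *Pvr* and *Cd80* lie above 1 under each scaling, and *Havcr2*, *Cd274*, *Cd86*, *Cd276* and *Icosl* shift toward or past 0 with library size alone.

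Levels between genes were compared as CPM per kilobase of gene length over the 6 libraries, a level and not a difference. The order was *Lgals9* at 110 ± 24.3, *Cd80* at 79.1 ± 90.1, *Havcr2* at 51.1 ± 26.04, *Cd86* at 37.1 ± 11.2, *Cd274* at 35.003 ± 17.8, *Pvr* at 27.6 ± 32.4, *Icosl* at 14.6 ± 3.14, *Cd276* at 5.07 ± 1.28 and *Pdcd1lg2* at 4.74 ± 2.48 (SD, n = 6). Among neighbours in this order only *Icosl* exceeded the next gene, *Cd276*, in 6 of 6 libraries. *Cd80* lay above *Havcr2* in 3 of 6, *Havcr2* above *Cd86* in 5 of 6, *Cd86* above *Cd274* and *Cd274* above *Pvr* in 4 of 6, *Pvr* above *Icosl* in 2 of 6 and *Cd276* above *Pdcd1lg2* in 3 of 6, so these neighbours did not differ beyond their spread. The places of *Cd80* and *Pvr* rest on batch 2, since by medians *Cd80* at 33.6 lay below *Havcr2* at 41.1 and *Cd86* at 35.4, and *Pvr* at 8.35 below *Icosl* at 15.3. *Lgals9* exceeded *Cd80* in 4 of 6, because *Cd80* was the higher in both libraries of batch 2. Within a gene, the level ranged 19.3-fold over the libraries in *Cd80* and 13.8-fold in *Pvr*, against 1.95-fold in *Icosl* and 1.97-fold in *Lgals9*. With library size alone, *Cd276* and *Pdcd1lg2* changed places and the rest of the order held.

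The genes most like each of these in level over the 6 libraries were found by Pearson's r of log2 CPM among the 10048 genes whose log2 CPM averaged 2 or more. For *Cd80* they were *Nktr* (r = 0.999) and *Nrg1* (r = 0.998), for *Pvr* *Mb21d1* (r = 0.999) and *Fam46a* (r = 0.999), and for *Havcr2* *Zfyve1* (r = 0.997) and *Slc44a1* (r = 0.996). *Cd86* was followed by *Setd3* (r = 0.994) and *Cltc* (r = 0.993), *Cd274* by *Brap* (r = 0.989), and *Cd276* by *Kansl1l* (r = 0.988) and *Nr1d2* (r = 0.987). *Pdcd1lg2* had *D16Ertd472e* and *Sytl1* (both r = 0.991), *Lgals9* had *Asrgl1* (r = 0.992) and *Srp9* (r = 0.990), and *Icosl* had *Rnf139* (r = 0.977) and *Lfng* (r = 0.947), the weakest likeness of the 9. Between these ligand genes themselves, *Cd80* and *Pvr* had r = 0.964 and *Pdcd1lg2* and *Cd86* r = -0.986. All these values share the batch difference and the same 6 libraries, with 2 libraries standing apart, and they are a description.

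The partners, kin and regulators of these genes were read from the same fit, as 9 lists with 70 genes tested. edgeR called 0 of the 70 with the batch term or the block, and with the batch term the unadjusted p was under 0.05 for 10, where it was for 7.6% of all genes. DESeq2 called 2 with the batch term, *Cadm1* and *Ceacam1*, and 4 with the block, the same 2 with *Jak2* and *Vsig4*, where it called 1.01% and 2.42% of all genes.

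*Ceacam1*, a partner of TIM-3, parted the subsets without overlap, with 31.9, 43.3 and 37.3 CPM across the F4/80high libraries against 75.5, 66.8 and 112 CPM across the F4/80low libraries. The fit gave -1.14 (SE 0.25, edgeR unadjusted p = 0.00138, edgeR adjusted p = 0.440), and DESeq2 gave an adjusted p of 0.0138 with the batch term and 0.00252 with the block. In this, *Ceacam1* differed from *Havcr2* and *Lgals9*, the other genes of the axis, whose values overlapped. Of the other myeloid inhibitory and adhesion genes, 6 of 12 were above 0 and 6 below. They included *Cd244*, a receptor of CD48, at -0.81 (edgeR adjusted p = 0.533), *Cd200r1*, the inhibitory receptor of CD200, at 0.88 (edgeR adjusted p = 0.632), and *Cd48* at 0.37 (edgeR adjusted p = 0.715).

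Nectins and nectin-like molecules are kin of PVR and bind some of the same receptors. *Cadm1* measured 29.6, 45.7 and 475 CPM across the F4/80high libraries against 10.8, 21.5 and 48.9 CPM across the F4/80low libraries. It was higher in F4/80high in each pair, and F4/80low replicate 3 exceeded both F4/80high libraries of batch 1, so the groups overlapped. The estimate was 1.88 (SE 0.47, edgeR adjusted p = 0.440), and DESeq2 with the batch term gave an adjusted p of 0.00781. *Pvrl4* (nectin-4) was at 1.11 (edgeR adjusted p = 0.489), *Pvrl3* (nectin-3) at -0.87 (edgeR adjusted p = 0.632) and *Pvrl1* (nectin-1) at -0.67 (edgeR adjusted p = 0.790). In this list 3 of 5 genes were above 0, with a median of 0.39, where *Pvr* itself was at -0.18.

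Among other B7-like and butyrophilin genes, 5 were tested and 2 were above 0. *Vsig4*, an inhibitory B7-related receptor of macrophages, measured 3.41, 29.5 and 0.324 CPM across the F4/80high libraries against 0.803, 5.19 and 0 CPM across the F4/80low libraries, higher in F4/80high in each pair and mainly seen in replicate 2. The fit gave 2.56 (SE 1.01, edgeR adjusted p = 0.621). *Btnl2* at 1.56, *Btn1a1* at -1.88 and *Btn2a2* at -5.19 averaged at most 1.23 CPM in either subset, with SEs above 1, and the gene of VISTA, listed as *4632428N05Rik*, was at -0.15. *Vtcn1*, *Igsf11*, *Hhla2*, *Timd2* and *Lilrb4a* were not analysed here.

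Of the TIM family, *Timd4* at -0.89 and *Havcr1* at -0.13 were both below 0, at edgeR adjusted p of 0.786 and 0.994. The 4 other galectins tested lay between -0.15 for *Lgals3* and 0.19 for *Lgals4*, with *Lgals1* at 0.10 and *Lgals8* at 0.00, all with edgeR adjusted p above 0.6. Costimulatory ligands of the TNF superfamily and *Cd40* had 3 of 9 genes above 0, among them *Tnfsf8*, the ligand of CD30, at 0.84 (edgeR adjusted p = 0.623) and *Tnfsf9*, the ligand of 4-1BB, at 0.26. Below 0 were *Tnfsf14* (LIGHT) at -0.74 and its receptor *Tnfrsf14* at -0.60, with edgeR adjusted p of 0.688 and 0.720.

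Of 13 genes listed around interferon-gamma signalling and *Cd274*, 11 were below 0, where 49.2% of all genes were, with a median of -0.21. Some, such as *Ciita*, *Cd74*, *Nlrc5* and *Socs1*, are not steps from interferon-gamma to *Cd274*. Close to 0 were *Jak1* at -0.02, *Socs1* at -0.05 and *Cd74* at -0.08. In all 3 pairs, 5 of the 13 were lower in F4/80high, where 17.9% of all genes were. By pair, 6, 3 and 4 of the 13 were above 0 in pairs 1, 2 and 3. *Jak2* has been given above, *Ciita*, the activator of MHC class II genes, was at -0.59 (edgeR adjusted p = 0.694), and *Irf8* at 0.29 and *Ifngr2* at 0.05 were the 2 above 0. Genes that handle the PD-L1 protein had 3 of 8 above 0, with *Cmtm4* at 1.28 and *Fbxo22* at 0.27 above 0 and *Rfwd2* (COP1) at -0.46 and *Hip1r* at -0.40 below, all with edgeR adjusted p above 0.6.

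Genes of a list of T-cell surface receptors, among them *Cd28*, *Pdcd1* and *Tigit*, were detected in both subsets. Of these, 11 of 12 had log2 fold changes above 0, where 50.8% of all genes had, with a median of 0.83. *Cd160* at 1.11 (edgeR adjusted p = 0.621) and *Cd2* at 1.02 (edgeR adjusted p = 0.681) had the smallest p among the 12. *Btla* at -0.61 (edgeR adjusted p = 0.770) was the gene below 0. Some of the 12, namely *Cd160*, *Cd2*, *Btla*, *Lag3* and *Cd5*, are not receptors of the ligands that this account covers. By pair, 11, 0 and 10 of the 12 had their higher level in F4/80high in pairs 1, 2 and 3, so the direction of the median did not hold in pair 2. A list of 10 T and NK cell genes moved in the same way, with sums of 928, 285 and 168 CPM across the F4/80high libraries against 334, 415 and 80.5 CPM across the F4/80low libraries, and its *Cd3e* averaged 65.5 CPM. The part of T and NK cells, which a lineage gate would leave out, in these receptor values was not tested.

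**Figure D5:**
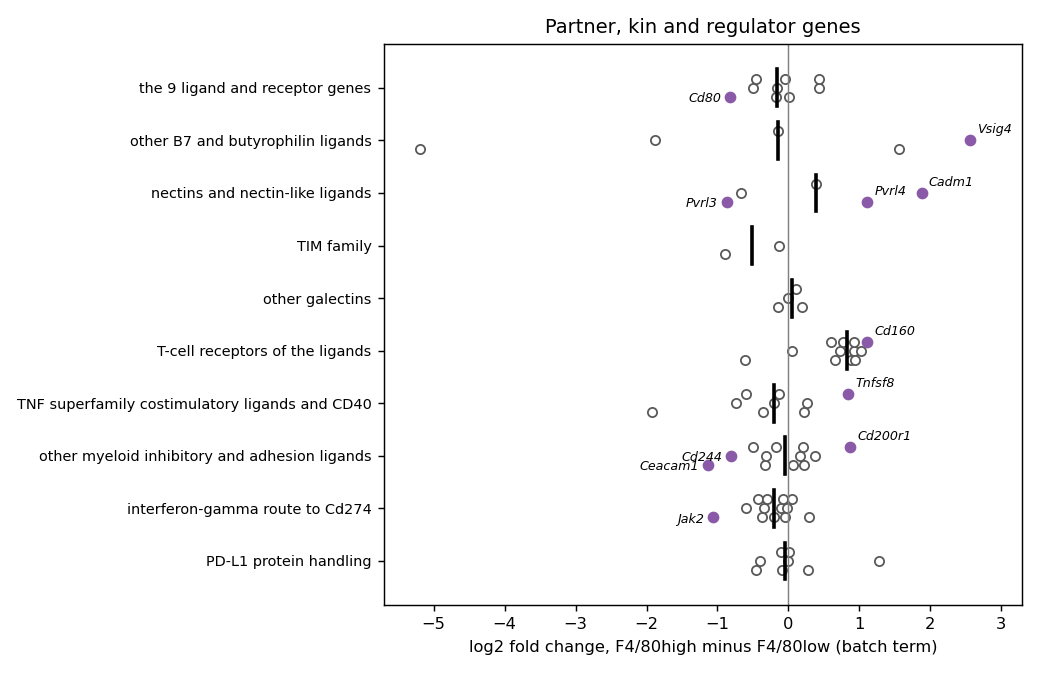
Log2 fold change of each gene in the lists around the ligands, with black bars at list medians, filled points for genes with an unadjusted edgeR p under 0.05 and open points for the rest. *Cd80* is the filled point among the 9, and 10 of the 70 other genes are filled, among them *Ceacam1*, *Jak2*, *Cadm1* and *Vsig4*.

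Markers of other cells are given for the sort, with none called in edgeR with the batch term. Their part in the values of the 9 genes was not tested. The CD45+ gate would leave out endothelial cells and fibroblasts, and a lineage gate with CD3e, NK1.1 and B220, which are among the study's antibodies, would leave out T, NK and B cells. The neutrophil marker Ly6G is also among these antibodies, and the text of the study's methods does not name the markers in the lineage gate. All 6 neutrophil genes were below 0 and lower in F4/80high in all 3 pairs, with sums of 438 to 1630 CPM against 964 to 3308 CPM. With the replicate block, edgeR called *Cxcr2* (-1.49), *Mmp8* (-1.39), *S100a9* (-1.17) and *S100a8* (-1.13) of these. Their adjusted p was 0.0317, 0.0324, 0.0450 and 0.0488, where the block fit called 0.519% of all genes. *Retnlg* and *Ly6g* were not called. All 6 eosinophil genes were below 0, with sums of 88.3 to 175 CPM against 245 to 595 CPM and *Epx* at 0 in at least 1 library. Mast cell and basophil genes summed to 6.04 to 47.1 CPM against 27.2 to 57.9 CPM, with *Mcpt4*, *Mcpt8*, *Ms4a2* and *Fcer1a* at 0 in at least 1 library. B cell genes summed to 52.9 to 346 CPM against 39.2 to 301 CPM, and endothelial genes to 32.2 to 82.3 CPM against 38.7 to 87.5 CPM with *Cldn5* and *Tie1* at 0 in at least 1.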

How the data were processed

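The authors deposited, for each of 6 libraries, a table of raw read counts per gene with gene length and biotype, without normalization. The study states poly-A libraries and its sequencing center's standard pipeline, and the aligner, counting rule and annotation are not given in the sources used here. Of the gene IDs, 99.4% were found in GENCODE M21 (GRCm38). Of 15813 protein-coding genes, the 14645 with at least 10 counts in total were tested in R 4.3.3 with edgeR 4.0.16 (quasi-likelihood, TMM, terms for batch and subset) and called at a Benjamini-Hochberg adjusted p under 0.05 over all genes and an absolute log2 fold change above 1. DESeq2 1.42.0, other scalings, filters, biotypes, no batch term, the replicate block and left-out libraries were alternatives. The steps were tested on simulated data.

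Replicate numbers were taken as pairs, since the study sorted both subsets in each of 3 experiments. Over 10048 genes, libraries with the same number shared their deviations from the means (r = 0.743, 0.727 and 0.907), and so did batch 1 libraries with different numbers (r = 0.632 and 0.611). At these depths, 3 counts are 0.0688 to 0.187 CPM of the total.

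The genes, lists, markers, motifs and tests were chosen with earlier results of these data known. Named besides the 9 were up to 2 genes per direction of a list, by smallest p, the 2 genes most alike in level (1 is not reported here), and genes said to be chosen later.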

Additional observations from a re-analysis of the deposited data

How the results depend on the processing

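Under the 22 alternatives, 0 of the 9 genes were called between the subsets. *Cd80*, *Cd86*, *Cd274*, *Pdcd1lg2*, *Cd276* and *Pvr* kept their direction in all 20 fits that give an estimate. *Icosl* fell below 0 without the batch term (-0.00281), and in the block fit without replicate 2 (-0.22), and ranged from -0.25 to 0.27 when single libraries were left out, with -0.098 without F4/80high replicate 1. *Havcr2* rose above 0 without replicate 3 of both subsets (0.0395) and in the block fits without replicate 3 (0.0437) and replicate 1 (0.178), was at -0.39 in the block fit without replicate 2, and single left-out libraries gave -0.26 to 0.0968 (0.0665, 0.0394 and 0.0392 in others). *Lgals9* rose to 0.0571 without replicate 3 of both subsets, to 0.0612 in the block fit without it, and to 0.0556 and 0.0553 without either replicate 3 library, with a lowest value of -0.29 over single left-out libraries and -0.33 in the block fit without replicate 1. The cause was not tested.

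The number of genes called between the subsets, 0 in edgeR with the batch term, was 148 in DESeq2, 76 with the replicate block (76 also on the adjusted p alone) and 354 in DESeq2 with the block. It was 0 to 57 when single libraries were left out, 57 without F4/80high replicate 1. In block fits added after the data were seen it was 315, 35 and 22 without replicates 1, 2 and 3. Of the list genes, 0 in edgeR, 2 were called in DESeq2, 4 in DESeq2 with the block and 1 (*Cadm1*) in the block fit without replicate 1. The biotype of the tables was also added later, with 0 called. The block changed no call among the 9. Between batches, 3 to 4 of the 9 were called under every alternative. *Pdcd1lg2* had the fewest counts of the 9, 33 and 39 in batch 2.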
